A study of Mus musculus with 4 samples.

Results

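The genes described here are those of the proteasome, chosen as all non-control probes of the array whose gene name begins with Psma to Psmg and a digit. They came to 69 probes for 44 genes, of 41174 probes and 27734 genes on the array, and 43 of these genes could be tested. RNA of freshly isolated epithelial cells of mouse small bowel was measured on 1-colour arrays, with 1 array per sample. In 2 samples the cells came from IKKb(EE)IEC mice, whose intestinal epithelium carries a constitutively active form of IKKb, the kinase that switches on the transcription factor NF-kB. The other 2 samples came from their wild-type (WT) littermates. The design text calls the samples biological replicates. The labels name no further allele or treatment, and neither the promoter of the active kinase nor the age or number of the mice. All 4 arrays lay on 1 slide and were read in 1 scan, IKKb(EE)IEC at positions 3 and 4 and WT at positions 1 and 2, so slide position and genotype cannot be told apart.

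The proteasome is the protease that degrades proteins tagged with ubiquitin. Its 20S core is a barrel of alpha and beta rings in which the beta5, beta1 and beta2 subunits (Psmb5, Psmb6 and Psmb7) cut the substrate, and its 19S cap, made of a base of ATPases and a lid, binds, unfolds and admits it. In cells exposed to interferon, 3 inducible subunits take the place of these in newly made cores: beta5i (Psmb8), beta1i (Psmb9) and beta2i (Psmb10). This form, the immunoproteasome, and the activator PA28, made of Psme1 and Psme2, favour peptides that fit major histocompatibility complex (MHC) class I molecules. The gut epithelium is known to make immunoproteasome subunits in inflammation.

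Values are log2 of the array signal after subtracting each array's 75th percentile, called normalized log2 signal below. Differences are IKKb(EE)IEC minus WT on the log2 scale, with the standard error of limma, a linear model fitted to all 12437 genes that were measured. A gene was called where its p-value, adjusted over all genes tested by the Benjamini-Hochberg method, was below 0.05. The labels do not say whether samples came from separate mice, so p-values measure the spread between these samples. The 75th percentile of the raw processed signal was 94.6 and 107.8 on the IKKb(EE)IEC arrays, against 60.3 and 66.1 on the WT arrays. Ikbkb itself, the gene for IKKb, had a difference of 0.83 (adjusted p = 0.0550 by limma), from a probe that may read the transgene, the mouse's own transcript or both. Of 19 epithelial markers on the array 18 could be tested, 9 with a positive and 9 with a negative difference. Fabp2, the fatty acid-binding protein of enterocytes, had normalized log2 signals of 11.3 and 11.4 in IKKb(EE)IEC, against 12.7 and 13.2 in WT. Its probe was saturated on 1 array. Anpep went the other way, at 10.4 and 10.3 in IKKb(EE)IEC, against 9.28 and 9.19 in WT.

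No proteasome gene was called in either direction with the scaling used here, while 6 were called higher in IKKb(EE)IEC with the authors' own normalized values. The count was 0 of 43 by limma, in a comparison in which 15.2% of all genes tested were called, 8.02% higher and 7.20% lower in IKKb(EE)IEC. The 5 inducible genes had differences of -0.21 to 0.12 and the 31 constitutive core and cap genes of -0.36 to 0.75. The median difference was 0.03 for the inducible genes and -0.03 for the constitutive genes, against -0.12 for all genes tested. At an unadjusted p below 0.05 the count was 3 of 43, beside 38.1% of all genes: Psmd2, Psmd3 and Psmd12, each of the 19S cap and each higher in IKKb(EE)IEC. For 42 of the 43 genes the 95% interval of the difference lay within a 2-fold change in either direction, as it did for 55.6% of all genes. The exception was Psmd2, with an interval of 0.25 to 1.26.

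**Figure D1:**
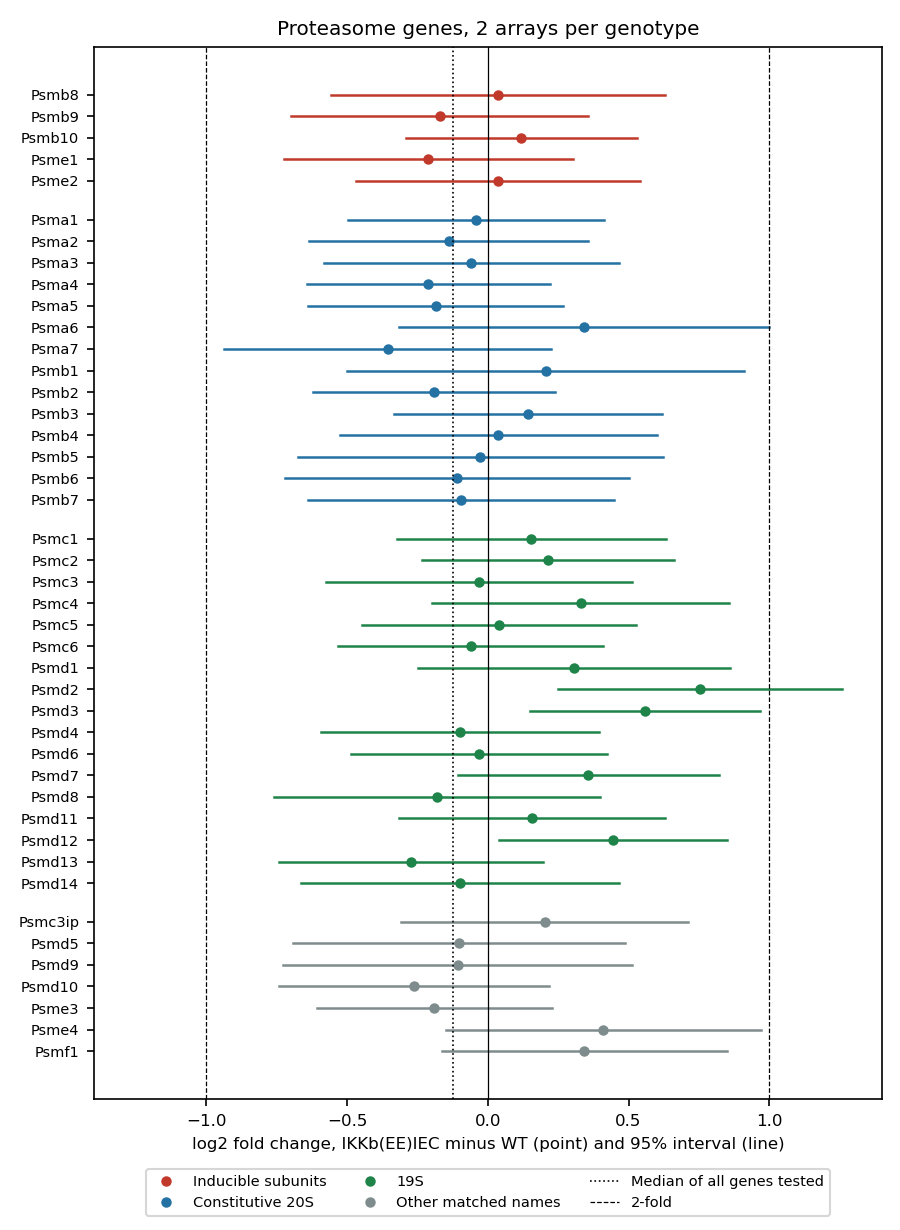
Log2 fold change of the 43 tested proteasome genes, IKKb(EE)IEC minus WT (point), with its 95% interval from the limma fit (line), by role. All intervals but that of Psmd2 (0.25 to 1.26) stay between the dashed lines that mark a 2-fold change, and the dotted line marks the median of all genes tested, -0.12.

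The inducible catalytic subunits come first. Psmb8, which encodes beta5i, had normalized log2 signals of 4.61 and 4.91 in IKKb(EE)IEC, against 4.48 and 4.97 in WT. Both IKKb(EE)IEC arrays lay between the WT arrays. The difference was 0.04 ± 0.24 (SE, n = 2 arrays each, adjusted p = 0.918 by limma), with a 95% interval of -0.56 to 0.63. A separate probe for the same transcript gave 0.05. Psmb9, which encodes beta1i, had signals of 5.57 and 5.60 in IKKb(EE)IEC, against 5.53 and 5.98 in WT. Here too the IKKb(EE)IEC arrays lay within the span of the WT arrays, with a difference of -0.17 ± 0.21 (95% interval -0.70 to 0.36). Psmb10, which encodes beta2i, had signals of 8.46 and 8.53 in IKKb(EE)IEC, against 8.34 and 8.41 in WT. It was the 1 inducible gene whose arrays did not overlap between genotypes, with both IKKb(EE)IEC arrays above both WT arrays. Its difference was 0.12 ± 0.16 (95% interval -0.29 to 0.53, adjusted p = 0.613 by limma), smaller than its standard error. Among all genes tested, 69.1% had arrays that did not overlap, 28.3% with IKKb(EE)IEC higher and 40.8% with it lower.

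The PA28 genes showed the same picture. Psme1, the alpha subunit of this activator, had signals of 6.73 and 6.72 in IKKb(EE)IEC, against 6.72 and 7.15 in WT. Its difference was -0.21 ± 0.21, with a 95% interval of -0.73 to 0.30, and the arrays of the genotypes overlapped. Psme2, the beta subunit, had signals of 9.39 and 9.51 in IKKb(EE)IEC, against 9.22 and 9.61 in WT. The IKKb(EE)IEC arrays lay between the WT arrays, the difference was 0.03 ± 0.20 (95% interval -0.47 to 0.54), and its other probe gave 0.19. For all 5 inducible genes the upper bound of the 95% interval was 0.63 or less on the log2 scale. This bound holds for the scaling used here alone. With the authors' values Psmb10 and Psme2 were called higher, at 0.53 and 0.49.

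The positions of the probes, as the array files give them in the mm8 build, were chr17:33811095-33811419 for Psmb8, chr17:33792517-33792576 for Psmb9, chr8:108824906-108824965 for Psmb10, chr14:54535428-54535487 for Psme1 and chr14:54541569-54541628 for Psme2. The probe of Psmb8 covers a longer stretch of genome than the other 4. Which exon a probe matches was not looked up. Psmb8 and Psmb9 lie in the MHC on chromosome 17 beside the peptide transporter genes Tap1 and Tap2, and Psmb9 and Tap1 are read away from each other from a shared stretch.

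The sequences before the starts of Psmb8 and Psmb9 are shown because interferon is known to act on these genes through short elements there, and those of Psmb5 and Psmb6 because they are the constitutive counterparts. They are RefSeq sequences of GRCm38.p6, 5′ to 3′ on the strand of the gene, and end at the last base before the start. They cover 250 bases, or for Psmb9 the 225 bases between its start and that of Tap1, at chr17:34197945-34198194 (plus strand) for Psmb8, chr17:34187331-34187555 (minus strand) for Psmb9, chr14:54617996-54618245 (minus strand) for Psmb5 and chr11:70525107-70525356 (plus strand) for Psmb6. Capitals mark a match to the gamma-activated site TTCNNNGAA in Psmb8 and to the antioxidant response element TGACNNNGC in Psmb5 and Psmb6, and Psmb9 held no match to these.
Psmb8: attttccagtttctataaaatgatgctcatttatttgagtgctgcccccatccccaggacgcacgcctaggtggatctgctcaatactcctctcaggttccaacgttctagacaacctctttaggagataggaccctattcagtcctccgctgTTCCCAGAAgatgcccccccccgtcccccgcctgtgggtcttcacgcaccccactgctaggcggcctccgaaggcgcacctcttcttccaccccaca
Psmb9: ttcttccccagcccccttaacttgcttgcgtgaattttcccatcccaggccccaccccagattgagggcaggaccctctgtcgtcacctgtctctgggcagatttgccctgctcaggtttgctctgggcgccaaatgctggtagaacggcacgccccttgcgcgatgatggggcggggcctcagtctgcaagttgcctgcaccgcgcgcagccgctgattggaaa
Psmb5: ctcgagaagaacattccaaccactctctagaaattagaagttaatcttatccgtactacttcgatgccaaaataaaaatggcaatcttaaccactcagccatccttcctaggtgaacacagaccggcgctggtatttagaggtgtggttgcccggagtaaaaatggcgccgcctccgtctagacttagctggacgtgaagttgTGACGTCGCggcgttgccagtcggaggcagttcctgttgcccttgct
Psmb6: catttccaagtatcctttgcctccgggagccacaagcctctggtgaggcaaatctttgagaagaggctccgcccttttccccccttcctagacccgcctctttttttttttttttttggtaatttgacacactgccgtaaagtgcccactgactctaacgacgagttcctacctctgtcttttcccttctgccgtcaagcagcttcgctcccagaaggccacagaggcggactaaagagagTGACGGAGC

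The search covered both strands and also took in the interferon-stimulated response element, the kappaB consensus and CCAAT, of which only CCAAT matched in these windows, 8 bases before the start of Psmb9. The match in Psmb8 began 97 bases before the start, and those in Psmb5 and Psmb6 began 47 and 9 bases before it. Of 32851 mouse promoters in the RefSeq table, 7.02% held TTCNNNGAA, 10.2% TGACNNNGC, 2.98% the interferon-stimulated response element, 7.25% the kappaB consensus and 33.8% CCAAT within 250 bases. A promoter was listed for 37 of the 43 tested proteasome genes, and 29 of these had the whole window free of another gene. Of the 29, 1 held TTCNNNGAA, 5 TGACNNNGC, 3 the interferon-stimulated response element, 3 the kappaB consensus and 9 CCAAT. The 3 with the interferon-stimulated response element were Psmb3, Psmd4 and Psmd9, with differences of 0.14, -0.10 and -0.11 between genotypes. The 3 with the kappaB consensus were Psmd11, Psmd12 and Psme4, with differences of 0.16, 0.44 and 0.41. None of these was called in the scaling used here, and Psmd12 was called higher with the authors' values. The other probes of Psmd12 gave 0.46 and -0.52. Psmd13, whose window was cut to 84 bases by another gene, also held the kappaB consensus and had -0.27. The 5 with TGACNNNGC were Psmb5, Psmb6, Psmc6, Psmd9 and Psmd12, with differences of -0.03, -0.11, -0.06, -0.11 and 0.44. Such a match describes the letters and does not show that a factor binds.

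The constitutive 20S genes, 14 in all, had a median difference of -0.08, and 0 passed limma's threshold or an unadjusted p of 0.05. The alpha ring forms the gate of the core. Of its 7 genes, Psma6 had the highest difference, 0.34 ± 0.26, and Psma7 the lowest, -0.36 ± 0.23. Psma7 had signals of 7.51 and 7.40 in IKKb(EE)IEC, against 7.54 and 8.09 in WT. Both IKKb(EE)IEC arrays were below both WT arrays, with a 95% interval of -0.94 to 0.23. Psma4 was the other alpha gene whose arrays did not overlap, lower in IKKb(EE)IEC at -0.21 ± 0.17, but its other probe gave -0.05 with overlapping arrays. Psma1, Psma2, Psma3 and Psma5 had overlapping arrays and differences of -0.04, -0.14, -0.06 and -0.19. Psma8, the alpha subunit of germ cells, was not well above background on any array and was not tested.

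The beta ring holds the cutting subunits. Psmb5, whose product cuts after hydrophobic residues, had signals of 4.80 and 5.02 in IKKb(EE)IEC, against 4.61 and 5.25 in WT. Psmb6, which encodes beta1, had signals of 7.41 and 7.45 in IKKb(EE)IEC, against 7.23 and 7.84 in WT. Psmb7, which encodes beta2, had signals of 2.92 and 3.01 in IKKb(EE)IEC, against 2.82 and 3.30 in WT. In each of the 3 genes both IKKb(EE)IEC arrays lay between the WT arrays, and the differences were -0.03 ± 0.26, -0.11 ± 0.24 and -0.10 ± 0.22. The structural beta genes Psmb1, Psmb2, Psmb3 and Psmb4 had differences of 0.21, -0.19, 0.14 and 0.04. Of these, only Psmb2 had arrays that did not overlap, lower in IKKb(EE)IEC.

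Because an inducible subunit takes the place of a constitutive one, the change of each inducible gene was set against that of its counterpart on the same array. Psmb8 minus Psmb5, given relative to the WT mean, was 0.03 and 0.10 on the IKKb(EE)IEC arrays, against 0.07 and -0.07 on the WT arrays. The shift was 0.06 and the IKKb(EE)IEC values did not stand apart from the WT values. Psmb9 minus Psmb6 was -0.06 and -0.07 on the IKKb(EE)IEC arrays, against 0.08 and -0.08 on the WT arrays. The shift of -0.06 again lay within the span of the WT arrays. Psmb10 minus Psmb7 was 0.22 and 0.21 on the IKKb(EE)IEC arrays, against 0.21 and -0.21 on the WT arrays. Its shift was 0.21, and the IKKb(EE)IEC arrays exceeded the higher WT array by less than the gap between the WT arrays. The two-sided exact permutation p was 0.667, 1.00 and 0.333 for these 3 shifts, and 0.333 is the smallest that 2 arrays against 2 allow. The p-values were not adjusted over the 3 pairs, since none can pass. After quantile normalization and in the authors' table the shift of Psmb9 minus Psmb6 was -0.23 and -0.24 and that of Psmb10 minus Psmb7 was 0.53 and 0.60, each with the smallest possible p of 0.333.

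The 19S cap had a median difference of 0.15 over 17 genes, and 0 were called. Psmd2 encodes Rpn1, a scaffold of the base that docks ubiquitin receptors. Its signals were 2.95 and 2.86 in IKKb(EE)IEC, against 2.35 and 1.95 in WT. Both IKKb(EE)IEC arrays were above both WT arrays, with a difference of 0.75 ± 0.20 (adjusted p = 0.0602 by limma), and its other probe gave 0.68. Psmd3, which encodes the lid subunit Rpn3, had signals of 5.15 and 5.06 in IKKb(EE)IEC, against 4.57 and 4.53 in WT. The gap between genotypes was wider than that between the arrays of either, at 0.56 ± 0.16 (adjusted p = 0.0723 by limma). Psmd12, which encodes the lid subunit Rpn5, had signals of 4.53 and 4.51 in IKKb(EE)IEC, against 4.05 and 4.10 in WT. Its difference was 0.44 ± 0.16 (adjusted p = 0.110 by limma). The 3 probes of Psmd12 did not give 1 direction, with values of 0.44, 0.46 and -0.52.

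The 6 ATPases of the base, which unfold the substrate, had differences of -0.06 to 0.33. Psmc4 had the highest, 0.33 ± 0.21, and Psmc2 had 0.21 ± 0.18, and in both the IKKb(EE)IEC arrays were above the WT arrays. Psmc1, Psmc3, Psmc5 and Psmc6 had overlapping arrays and differences of 0.15, -0.03, 0.04 and -0.06, and the other probe of Psmc5 gave -0.11 and that of Psmc6 -0.51. Psmd1, the other large scaffold of the base, had 0.30 ± 0.22 with no overlap between genotypes. In the lid, Psmd7 had 0.36 ± 0.19 with IKKb(EE)IEC higher and Psmd13 had -0.27 ± 0.19 with IKKb(EE)IEC lower, each with no overlap. Psmd14, the deubiquitinase that clips ubiquitin chains off the substrate, had -0.10, the ubiquitin receptor gene Psmd4 had -0.10, and Psmd6, Psmd8 and Psmd11 had -0.03, -0.18 and 0.16. All 5 had overlapping arrays. Another probe of Psmd7, for the transcript AK012463, was above background on both IKKb(EE)IEC arrays and on neither WT array, and its signal was at least 1.17-fold higher in IKKb(EE)IEC, measured against the lowest signal well above background on each WT array or the probe's own where that was higher.

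The remaining members are activators, an inhibitor and assembly chaperones. Psme4, the activator PA200, had signals of 3.28 and 3.15 in IKKb(EE)IEC, against 3.06 and 2.55 in WT. Psmf1, the inhibitor PI31, had signals of -0.24 and -0.51 in IKKb(EE)IEC, against -0.57 and -0.87 in WT. In both genes the IKKb(EE)IEC arrays were above the WT arrays, by 0.41 ± 0.22 and 0.34 ± 0.20. Psme3, the nuclear activator PA28 gamma, was lower on both IKKb(EE)IEC arrays, at -0.19 ± 0.17. The chaperones of base assembly Psmd5, Psmd9 and Psmd10 had differences of -0.10, -0.11 and -0.26. Psmc3ip, which shares the name but encodes a meiotic recombination factor and is no subunit, had 0.20. The core chaperones Psmg1, Psmg2 and Psmg3 are on the array under older names and are not members, and had -0.10, 0.12 and 0.12. Over all 43 genes, 10 had both IKKb(EE)IEC arrays above both WT arrays and 6 below, beside the 28.3% and 40.8% of all genes given above.

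The largest spread in these genes lay between the WT arrays. WT replicate 2 was above WT replicate 1 in 39 of 43 genes (90.7%), beside 54.3% of all genes tested, with a median gap of 0.36 against 0.05 for all genes. The median gap between the IKKb(EE)IEC arrays was 0.07. In 17 of the 43 genes (39.5%) both IKKb(EE)IEC arrays lay between the WT arrays, beside 12.2% of all genes. The gap between WT arrays exceeded the difference between genotypes in 34 genes (79.1%), beside 39.0% of all genes. All 14 constitutive 20S genes and all 5 inducible genes were higher on WT replicate 2, whereas Psmd2, Psmd3, Psme4 and Psmf1 were lower there.

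**Figure D2:**
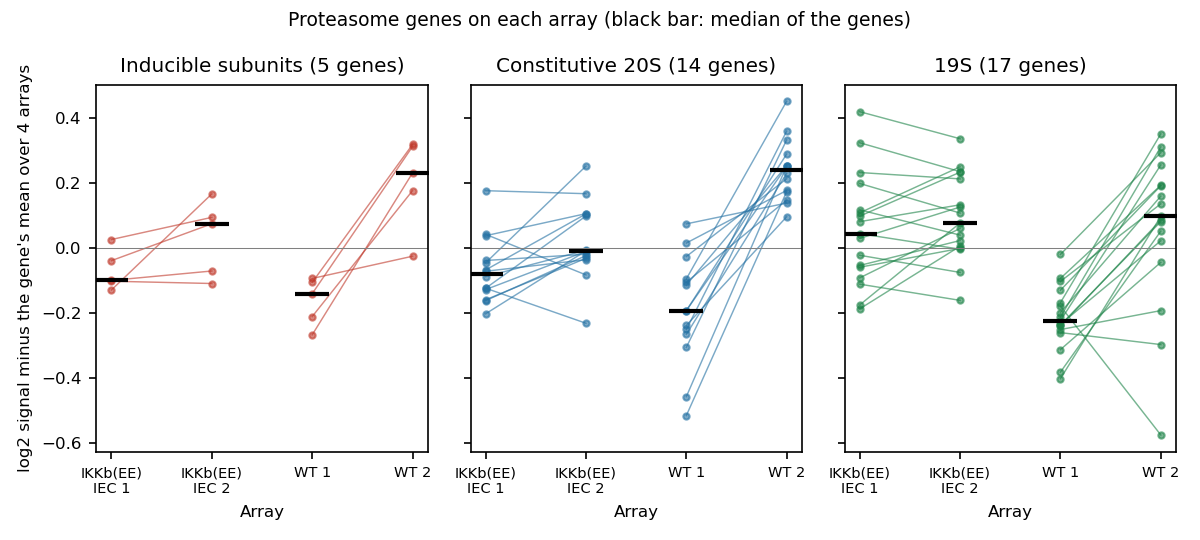
Normalized log2 signal of each gene minus its mean over the 4 arrays, by array and role, with lines joining the arrays of a genotype and black bars at the median of the genes. The IKKb(EE)IEC arrays sit close together, while WT replicate 2 lies above WT replicate 1 in all 5 inducible and all 14 constitutive 20S genes and in 15 of 17 19S genes.

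With this spread, leaving out 1 WT array moved the calls. Without WT replicate 1, 4 of the 43 genes were called by limma, Psmd2, Psmd3 and Psme4 higher and Psma7 lower in IKKb(EE)IEC, beside 49.7% of all genes. Without WT replicate 2, 6 were called higher, Psma6, Psmb1, Psmc4, Psmd1, Psmd2 and Psmd3, beside 33.6% of all genes. Psmd2 and Psmd3 were called in both, at 0.95 and 0.58 in the fit that lacks WT replicate 1 and at 0.56 and 0.54 in the fit that lacks WT replicate 2. The 1 remaining WT array is taken to vary as the IKKb(EE)IEC arrays do in these fits. None of the 5 inducible genes was called in either. Their median difference was -0.21 in the first of these fits and 0.15 in the second, and that of the constitutive genes was -0.21 and 0.21.

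The values of these genes also differed with the scaling between arrays. The 640 genes with a mean normalized log2 signal above 6 had a median difference of -0.39 in the scaling used here, against -0.03 after quantile normalization and -0.01 in the authors' deposited table of normalized values. The 9 proteasome genes above that level had medians of -0.11, 0.26 and 0.26 in the same order. The 34 dimmer proteasome genes had medians of -0.03, 0.14 and 0.10, against -0.10, -0.06 and -0.02 for all dimmer genes, so the dim members too were higher in the other scalings, and 3 of the 6 genes called in the authors' values are dim. The median of all genes tested was -0.12 in the scaling used here and -0.02 in the authors' table. With the authors' values, limma called 6 of the 43 genes, all higher in IKKb(EE)IEC, beside 8.44% of all genes called higher. They were Psmb10 (0.53, adjusted p = 0.0446), Psme2 (0.49, adjusted p = 0.0345), Psmb3 (0.44, adjusted p = 0.0401), Psmd2 (0.72, adjusted p = 0.0272), Psmd3 (0.67, adjusted p = 0.0252) and Psmd12 (0.54, adjusted p = 0.0293). In those values Psmb8, Psmb9 and Psme1 were not called, at 0.18, 0.02 and 0.09. After quantile normalization Psmb10 had 0.48 and Psme2 had 0.49, and limma called 0 of the 43 genes, beside 8.29% of all genes called higher, with 5 genes at an unadjusted p below 0.05. Each called change in the authors' values was below 2-fold. A background correction by normexp with faulty local backgrounds repaired gave 3 calls, Psmd2, Psmd3 and Psmd12 (11.3% of all genes higher), and a filter that asks for signal above background on all 4 arrays gave 1, Psmd2 (adjusted p = 0.0453, 7.48% of all genes higher).

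**Figure D3:**
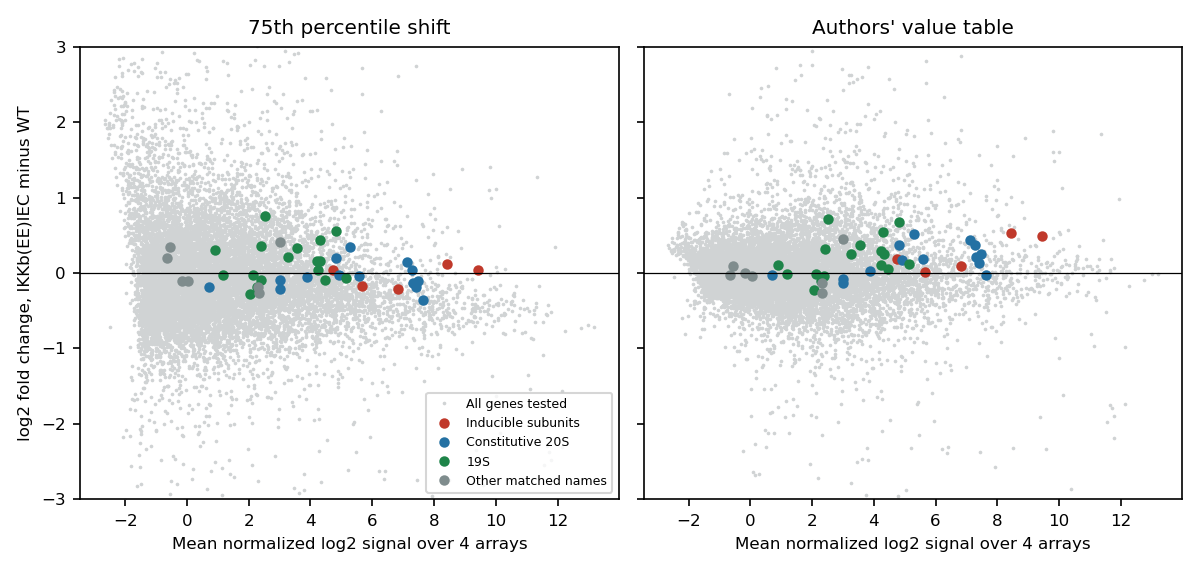
Log2 fold change, IKKb(EE)IEC minus WT, against the mean normalized log2 signal over the 4 arrays, for all genes tested (grey) and the proteasome genes (coloured), with the 75th percentile shift on the left and the authors' deposited values on the right. Genes beyond the range of the vertical axis are not drawn, and the genes above a mean of 6 had medians of -0.39 on the left and -0.01 on the right, those of the proteasome among them -0.11 and 0.26.

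**Figure D4:**
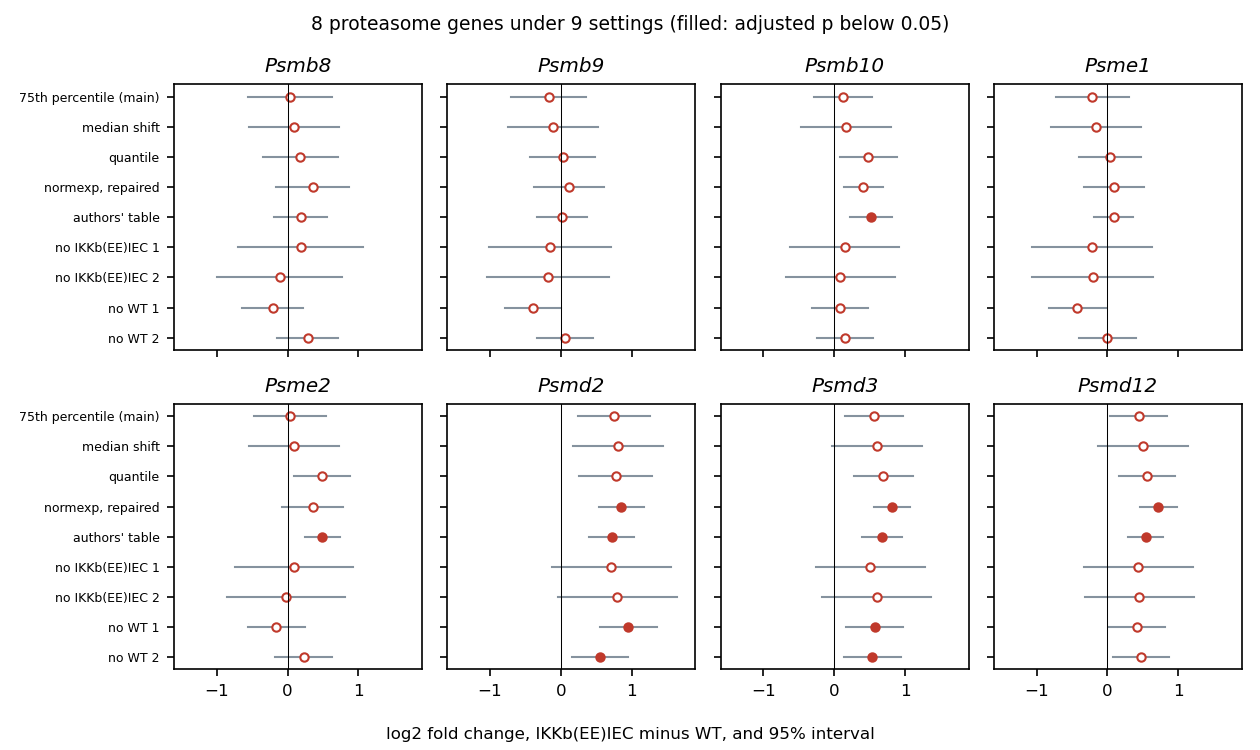
Log2 fold change (point) and 95% interval (line), IKKb(EE)IEC minus WT, of 8 proteasome genes under 9 settings, with filled points where the adjusted p was below 0.05. Psmb10 and Psme2 are filled in the authors' table alone, at 0.53 and 0.49, while the points of Psmd2 and Psmd3 lie above 0 in all 9.

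Genes that act on proteasome products or regulate the proteasome were read in the same fit. Of 10 measured genes of MHC class I peptide supply, 4 rose in IKKb(EE)IEC, none fell and 6 did not pass, beside the 8.02% of all genes called higher. With the authors' values 6 rose, B2m and H2-D1 added, beside 8.44% of all genes. After quantile normalization 5 rose, B2m added, beside 8.29%. With no filter 0 rose, in a fit that called 501 of 27727 genes higher, and with the unrepaired normexp, which called no gene at all, 0 rose. Tap2, a subunit of the transporter that carries proteasome products into the endoplasmic reticulum, had signals of 0.92 and 0.78 in IKKb(EE)IEC, against -0.21 and -0.15 in WT, and rose by 1.03 ± 0.17 (adjusted p = 0.0212 by limma). Tapbp and Tapbpl, which load and edit the peptides on class I molecules, rose by 1.13 ± 0.25 and 1.15 ± 0.23. The class I heavy chain gene H2-K1 rose by 1.04 ± 0.19, with the reservation that class I genes are close copies and can share signal on a probe. Without IKKb(EE)IEC replicate 1 and 2 the values were 0.97 and 1.10 for Tap2, 1.03 and 1.22 for Tapbp, 1.22 and 1.07 for Tapbpl and 1.03 and 1.05 for H2-K1, and none of the 4 passed, in fits that called 1.99% and 2.65% of all genes. Tap1, the other transporter subunit and the neighbour of Psmb9, was not well above background on any array and was not tested. The change of Tap2 exceeded that of Psmb8 by 1.00. Relative to the WT mean, Tap2 minus Psmb8 was 1.21 and 0.78 on the IKKb(EE)IEC arrays, against 0.22 and -0.22 on the WT arrays. Tap2 was called and Psmb8 was not, so this shift restates those results and is no separate support.

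**Figure D5:**
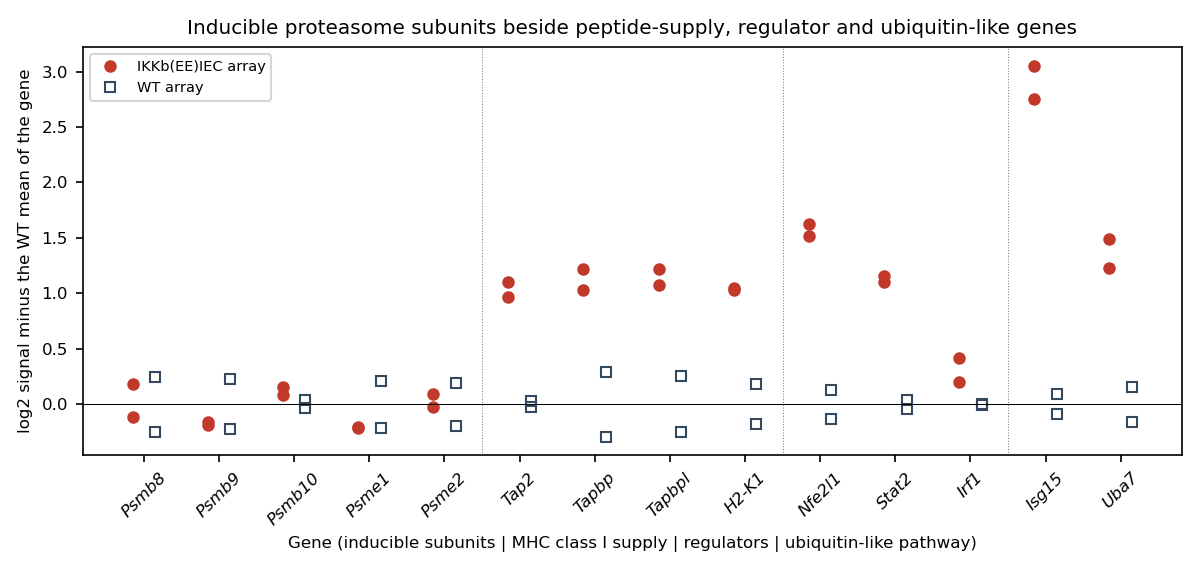
Normalized log2 signal of each array minus the WT mean of the gene, for the 5 inducible proteasome genes, genes of MHC class I peptide supply, regulators and the ubiquitin-like gene Isg15 and its activating enzyme gene Uba7, with IKKb(EE)IEC arrays as filled circles and WT arrays as open squares. In this scaling 4 of the 5 inducible genes have overlapping arrays, and in Psmb10 (0.12) both IKKb(EE)IEC arrays lie above both WT arrays. The same holds for Tap2 (1.03), Tapbp, Tapbpl, H2-K1, Nfe2l1 (1.58), Stat2, Irf1 (0.31), Isg15 (2.90) and Uba7, beside 28.3% of all genes tested.

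Of 13 known regulators of proteasome genes, 2 rose and none fell, beside 8.02% of all genes called higher and 7.20% called lower. Nfe2l1 encodes Nrf1, the factor that raises the transcription of constitutive subunits when proteasome activity falls short. Its signals were 3.74 and 3.63 in IKKb(EE)IEC, against 2.24 and 1.98 in WT, a rise of 1.58 ± 0.18 (adjusted p = 0.00818 by limma). Its change exceeded that of Psmb5 by 1.60. Relative to the WT mean, Nfe2l1 minus Psmb5 was 1.77 and 1.44 on the IKKb(EE)IEC arrays, against 0.45 and -0.45 on the WT arrays. Nfe2l1 was called and Psmb5 was not, so this shift too is no separate support. Stat2, part of the factor that answers type I interferon, rose by 1.13 ± 0.16 (adjusted p = 0.0161 by limma). Neither passed without IKKb(EE)IEC replicate 1 or 2, with 1.52 and 1.63 for Nfe2l1 and 1.16 and 1.10 for Stat2. Irf1, which drives inducible subunits, had signals of 6.01 and 5.79 in IKKb(EE)IEC, against 5.59 and 5.59 in WT, and did not pass at 0.31 ± 0.17 (adjusted p = 0.241 by limma).

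Of 8 measured genes for ubiquitin, ubiquitin-like proteins and their activating enzymes, 3 rose and none fell, beside the same 8.02% and 7.20% of all genes. Ubd, the ubiquitin-like FAT10 whose conjugates the proteasome degrades, had signals of 10.4 and 10.1 in IKKb(EE)IEC, against 3.23 and 6.20 in WT, and rose by 5.52 ± 0.91 (adjusted p = 0.0224 by limma). The WT arrays stood far apart from each other in this gene, and without WT replicate 1 and 2 the rise was 4.04 and 7.01. Isg15, an interferon-induced ubiquitin-like protein, rose by 2.90 ± 0.19, and Uba7, its activating enzyme, by 1.36 ± 0.20. Without IKKb(EE)IEC replicate 1 and 2 Isg15 passed, while Ubd (5.39 and 5.65) and Uba7 (1.23 and 1.49) did not. Of 18 measured proteasome partners outside the name rule, 4 were called higher with the authors' values, Adrm1, Rad23b, Sem1 and Vcp, beside 8.44% of all genes. With the repaired normexp 5 were called higher, beside 11.3%, and with the mean of a gene's probes 0. In the scaling used here 1 rose and none fell, no larger a share than the 8.02% of all genes called higher. It was Rad23b, a shuttle that carries ubiquitinated proteins to the proteasome, at 0.87 ± 0.17 (adjusted p = 0.0322 by limma), with 0.81 and 0.93 and no call without IKKb(EE)IEC replicate 1 and 2. Pomp, the chaperone that the core needs to form and that favours the immunoproteasome, had signals of 7.64 and 7.65 in IKKb(EE)IEC, against 7.99 and 8.26 in WT. Both IKKb(EE)IEC arrays were below both WT arrays, and it did not pass, at -0.47 ± 0.18 (adjusted p = 0.121 by limma).

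Leukocytes make inducible subunits at high level, so their markers stand beside these values. Of 13 measured T and NK cell markers, 0 were called by limma, beside 15.2% of all genes. At an unadjusted p below 0.05 there were 4, a share no larger than the 38.1% of all genes. In the authors' values limma called 2, both lower in IKKb(EE)IEC, beside 721 of 12341 genes called lower. The smallest p belonged to Klrd1 (-0.66 ± 0.18) and Cd3d (-0.65 ± 0.18), and these were the 2 called in the authors' values and with the filter on all 4 arrays. Cd8b1, a chain of the CD8 coreceptor, had the largest difference of the list, 0.86 ± 0.24 with IKKb(EE)IEC higher, and was called higher with a median shift (0.91) and with the repaired normexp (0.76). With either WT array left out, markers of this list were called in both directions, in fits that called the large shares of all genes given above. Of 13 macrophage and dendritic cell markers 7 rose and none fell, beside 8.02% of all genes called higher and 7.20% called lower. But only 6 of the 13 were above background on all 4 arrays. With the filter on all 4 arrays 1 of these 6 rose, the signalling adaptor gene Tyrobp, beside 7.48% of all genes. The complement gene C1qc was at least 17.4-fold higher in IKKb(EE)IEC, the Fc receptor gene Fcgr1 at least 9.89-fold higher and the macrophage antigen gene Adgre1 at least 3.88-fold higher, and none of them was above background on a WT array, so they passed the filter through the IKKb(EE)IEC arrays alone. Ms4a7, above background on 1 of the 2 WT arrays, rose by 3.03 ± 0.63, and by 2.04 against that WT array alone. C1qb, which encodes a partner chain of C1qc and was above background on all 4 arrays, had -0.15 ± 0.17, and Flt3, a receptor of dendritic cell precursors, had -0.79 ± 0.26 (adjusted p = 0.0910 by limma). C1qa, also called and at least 1.67-fold higher in IKKb(EE)IEC, and Cd68, not called, were above background on no WT array either. Fits without 1 IKKb(EE)IEC array kept the same filter, so calls of such genes there are no separate support. Tyrobp, Itgax and Ms4a7 lost their calls in these fits. Of 5 B and plasma cell markers, Blnk rose by 0.92 and Cr2 fell by 0.86. Of 9 pan-leukocyte markers 2 rose, Cytip by 1.70 and Cd52 by 0.92. The same 8.02% of all genes called higher and 7.20% called lower stand beside these lists and the epithelial markers below. Not well above background on any array were 2 of 15 T and NK, 2 of 16 macrophage and dendritic, 4 of 9 B and plasma and 1 of 10 pan-leukocyte markers. Summed over the 40 measured leukocyte markers on the linear scale, the level was 286 and 250 on the IKKb(EE)IEC arrays, against 223 and 261 on the WT arrays. Such a sum weights bright probes, and without the brightest T and NK marker, the granzyme gene Gzma, it was 219 and 194 on the IKKb(EE)IEC arrays, against 146 and 152 on the WT arrays, so the overlap between genotypes rested on that probe. For the T and NK markers it was 120 and 106 on the IKKb(EE)IEC arrays, against 139 and 171 on the WT arrays, and without Gzma 52.3 and 49.9 on the IKKb(EE)IEC arrays, against 62.5 and 63.0 on the WT arrays. For the macrophage and dendritic markers it was 66.7 and 53.6 on the IKKb(EE)IEC arrays, against 24.9 and 28.7 on the WT arrays. This sum and those over all leukocyte markers hold Adgre1, Cd68, C1qa, C1qc and Fcgr1, which were above background on no WT array. Such genes entered through the IKKb(EE)IEC arrays alone, so the filter set part of the difference in advance. Among 18 measured epithelial markers Anpep rose by 1.10, and Fabp2 (-1.56, saturated on 1 array), Fabp1 (-1.35) and Lct (-1.26) fell, calls that were lost after quantile normalization (-0.32, -0.51 and -0.95). The calls among B cell, pan-leukocyte and epithelial markers were also lost without either IKKb(EE)IEC array. The part of these cells in the values of the proteasome genes was not tested, and in bulk RNA fewer cells of a type and less RNA per cell cannot be told apart.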

How the data were processed

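Per the file headers, the intensities of the authors' scanner files were made with Agilent Feature Extraction 9.5.3.1 on array design 014868, with the background subtracted and no scaling between arrays. The other columns used are spot flags (well above background, saturated, non-uniform) that the file headers define. The authors' deposited table of 40913 probes holds linear intensities with column medians of 111.5 to 112.0. The arrays in it share a scale, and the method is not given in the sources used. Within each array its values rank the probes nearly as the spot intensities do (lowest Spearman correlation 0.999). A rank correlation within an array cannot show how the arrays were scaled to each other.

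From the log2 processed signal of each array its 75th percentile was subtracted (43379 non-control spots), and spots of a probe were averaged. Probes well above background on at least 2 of 4 arrays were kept (16394), and the probe of highest mean stood for its gene. Of the 69 proteasome probes, 59 passed, 54 were above background on all 4 arrays and 10 on none. Names follow RefSeq accessions for 24375 probes, another probe of the same name for 4647, and the files for 12152. The comparison of genotypes used limma 3.58.1 (lmFit, eBayes; R 4.3.3) with two-sided tests, and intervals use the moderated standard error. The fit was tested on simulated data. The number of arrays limits precision, and 2 arrays against 2 allow no permutation p below 0.333. Levels of different probes were not compared, and sums of marker levels weight bright probes.

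The members and gene lists were chosen with earlier results of these data known. The pairs of Tap2 with Psmb8 and of Nfe2l1 with Psmb5 were not among the planned pairs. Every member is named. From each further list, up to 4 called genes with the largest change, or 2 with the smallest p where none passed, are named, with Tap1, Nfe2l1, Pomp, Irf1, Ubd and the chaperones Psmg1 to Psmg3 besides, and Ikbkb, Cd8b1, C1qb, Flt3 and Gzma were added after their values were seen. A listed gene was left out of the counts and is not reported here.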

Additional observations from a re-analysis of the deposited data

How the results depend on the processing

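The count of called proteasome genes was 0 with the main scaling, a median shift, quantile normalization, normexp background correction as planned, no filter, the mean of a gene's probes and either IKKb(EE)IEC array left out, and 0 of 59 probes were called in a fit of all probes that called 13.9% of them. The normexp correction called 0 genes on the whole array, because 8 spots with a local background above their signal disturbed its fit. With those backgrounds set to the array median, a setting chosen after seeing the data, limma called 3 genes, all constitutive (Psmd2, Psmd3 and Psmd12). The authors' table gave 6 calls, of which 2 were inducible and 4 constitutive, and a filter on all 4 arrays gave 1, Psmd2. Leaving out 1 array at a time gave 0 to 6 called genes, 0 to 6 of them constitutive. The median difference of the constitutive genes was 0.15 after quantile normalization, 0.23 with the repaired normexp and 0.17 in the authors' table, and -0.21 to 0.21 with 1 array left out. That of the inducible genes was 0.18 after quantile normalization, 0.18 in the authors' table and 0.35 with the repaired normexp, and -0.21 to 0.15 with 1 array left out. The shift of Psmb8 minus Psmb5 ran from -0.0072 to 0.13, that of Psmb9 minus Psmb6 from -0.14 to 0.016 and that of Psmb10 minus Psmb7 from 0.0085 to 0.42 with 1 array left out. The sign of 19 of 43 differences turned with the repaired normexp, 12 in the authors' table, 11 after quantile normalization, 16 without WT replicate 2 and 9 without WT replicate 1, while none of these genes passed in both directions. Among all genes, 997 were called higher and 896 lower, against 1260 and 735 with a median shift and 1406 and 556 with the repaired normexp. With the replicate number as a block, 0 proteasome genes and 1500 genes in all were called, against 1893 without it. The labels give the number alone, and the correlation of the same-numbered deviations was 0.11. The causes were not tested. The change of Psmd2, 0.75 ± 0.20, was not called with the main scaling and was called in some other settings. With 2 arrays per genotype, the smallest change that can be called depends on the spread of each gene and was not computed. Dim genes are limited by the background.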
